A study of Homo sapiens with 9 samples.

Results

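Cytochrome P450 enzymes are heme proteins that insert oxygen into lipids, steroids, vitamins and foreign compounds. The levels of 9 of their genes (CYP4X1, CYP1A1, CYP1B1, CYP24A1, CYP27B1, CYP27A1, CYP2S1, CYP2J2 and CYP39A1) were followed in mammary epithelial cells before and after transformation by BMP2 and IL6. They were taken by symbol from a table of 60199 genes, and all were found. CYP4X1 was chosen by its log2 fold change in MC26 against CT, where it is among the largest decreases, so for all members that contrast is described with no test. Of the members, 8 passed the filter on low counts that left 15717 genes for testing. CYP2S1 did not pass, and CYP27A1 passed only through the parental libraries, where it was higher.

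MCF10A is a non-malignant human mammary epithelial line that lacks CDKN2A and carries extra copies of MYC, and all groups share this background. Poly-A RNA was read from 3 cultures of each of MCF10A-CT (CT, untreated), MC26 and M1B26. MC26 is the line obtained from unsorted MCF10A by prolonged culture with the growth factor BMP2 and the cytokine IL6. M1B26 was obtained under the same factors from cells sorted for the receptor BMPR1B, where transformation was seen after a few weeks. Soft-agar colonies of these cells were then grown out with both factors still present. The effects of sorting, cloning, exposure and its length therefore cannot be told apart. Whether a library of M1B26 stands for 1 clone is not stated, and a sequencing batch is not given, so that batch and line cannot be told apart either. P-values measure the spread between these cultures, which the main fit estimated over all lines, also for a comparison of 2 of them.

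Library totals ran from 21425118 to 80076597 counts, both in CT. Levels are CPM, counts scaled to a common library size with TMM factors, and 1 count was worth 0.0122 to 0.0437 CPM. Log2 CPM of all tested genes correlated at 0.986 to 0.995 within a line and 0.951 to 0.975 between lines. All 8 epithelial markers checked, KRT5, KRT14 and TP63 among them, had counts, and their sum was 6690 to 9290 CPM. Among leukocyte markers, CD3E had 0 counts in every library, PTPRC had at most 2 and LYZ at most 4. The 5 fibroblast markers summed to 36.8 to 37.0 CPM in CT, 16.7 to 55.9 in MC26 and 27.9 to 39.3 in M1B26, and COL3A1 had at most 1 count. Of 3 fibroblast markers tested, 2 were called higher in M1B26 than in CT by edgeR, beside 25.2% of all tested genes. The other was not called. COL1A1 rose by 0.98 on the log2 scale and lies on chromosome 17. The median log2 fold change of tested genes there was 0.48 in M1B26 against CT, and the part of that shift was not tested. LUM had 0.0714 to 0.131 CPM in CT and 4.38 to 6.20 in M1B26, and it entered the test through the transformed lines. The part of COL1A1 and LUM in the M1B26 results was not tested. The 3 endothelial markers summed to 4.85 to 5.31 CPM in CT, 0.0994 to 0.541 in MC26 and 0.497 to 1.74 in M1B26, nearly all PECAM1, since VWF had at most 3 counts and CDH5 at most 1. This sum moved in the direction of CYP4X1, and its part in that result was not tested.

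Enzymes of the CYP1 family act on polycyclic hydrocarbons and oestrogens and are classical targets of the aryl hydrocarbon receptor, a transcription factor switched on by its ligands. CYP27B1 makes the hormonal form of vitamin D, and CYP24A1 breaks it down. CYP27A1 and CYP39A1 hydroxylate sterols on the way to bile acids, CYP2J2 makes epoxides of arachidonic acid, CYP2S1 is found in epithelia outside the liver, and CYP4X1, of a family of fatty acid hydroxylases, has few known substrates. In breast epithelium these enzymes are known mainly for the local handling of steroids, vitamin D and carcinogens.

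Promoter sequences are shown for CYP4X1 and its chromosomal neighbour CYP4B1, the P450 genes with the lowest log2 fold changes, for CYP1A1, the classical target of the aryl hydrocarbon receptor, and for CYP2J2, which was higher in both transformed lines. They are RefSeq entries on GRCh38.p14, 250 bases before the transcript start on the gene's strand, and capitals mark GCGTG, the core of the element this receptor binds, or CACGC, the same letters on the other strand.
CYP4X1, chr1:47023419-47023668, plus strand: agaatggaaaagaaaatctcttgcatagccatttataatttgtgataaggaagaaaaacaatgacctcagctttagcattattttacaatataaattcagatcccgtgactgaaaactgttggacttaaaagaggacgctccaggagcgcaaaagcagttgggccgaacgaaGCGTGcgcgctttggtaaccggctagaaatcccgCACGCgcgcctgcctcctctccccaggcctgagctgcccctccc
CYP4B1, chr1:46798796-46799045, plus strand: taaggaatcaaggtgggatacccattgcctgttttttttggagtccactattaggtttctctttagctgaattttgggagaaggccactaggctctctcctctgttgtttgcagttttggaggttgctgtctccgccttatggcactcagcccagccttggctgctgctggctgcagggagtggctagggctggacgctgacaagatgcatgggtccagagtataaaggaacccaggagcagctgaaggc
CYP1A1, chr15:74725529-74725778, minus strand: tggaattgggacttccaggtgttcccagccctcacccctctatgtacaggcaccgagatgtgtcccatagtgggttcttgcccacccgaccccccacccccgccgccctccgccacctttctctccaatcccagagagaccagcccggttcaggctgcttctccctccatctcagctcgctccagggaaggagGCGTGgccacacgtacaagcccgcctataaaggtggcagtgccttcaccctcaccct
CYP2J2, chr1:59926774-59927023, minus strand: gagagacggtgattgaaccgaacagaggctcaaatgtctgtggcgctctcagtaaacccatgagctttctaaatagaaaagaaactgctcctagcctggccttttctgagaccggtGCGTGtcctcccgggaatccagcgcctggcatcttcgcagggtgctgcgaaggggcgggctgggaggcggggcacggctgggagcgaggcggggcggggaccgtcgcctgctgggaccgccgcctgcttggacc
Entries were found for 6 of the 9 members, without CYP1B1, CYP24A1 and CYP27B1. The CYP4X1 window held 2 matches, starting at -78 and -44 from the transcript start, CYP1A1 held 1 at -57, CYP2J2 held 1 at -134 and CYP4B1 held 0. A match on either strand was present in 32.2% of 35116 RefSeq windows of the same length. CpG dinucleotides numbered 13 for CYP4X1, 10 for CYP1A1, 19 for CYP2J2 and 2 for CYP4B1, against a median window of 11. The CYP4B1 entry lies 41208 bases inside the gene as GENCODE draws it. These matches describe letters in a window and not binding.

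CYP4X1 (chromosome 1, 47023669 to 47050751, GRCh38) was well detected in CT and low in both transformed lines. CYP4X1 had 21.0, 18.5 and 18.5 CPM in the CT libraries, 0.472, 0.523 and 0.917 in those of MC26 and 1.46, 1.02 and 2.92 in those of M1B26. No lines overlapped, and the order was CT, M1B26 and MC26 from the top. In such bulk samples, fewer cells with the transcript and less of it per cell cannot be told apart. The level in MC26 was 30.04-fold lower than in CT, or -4.91 (SE 0.34) as a log2 fold change, which is the value that selected the gene. Over all 15717 tested genes it held place 46 from the lowest. Among 10637 genes whose mean reached 5 CPM, a level CYP4X1 reached only in CT, it held place 2, between CAMK2B at -5.85 and POGLUT3 at -4.90. In M1B26, whose libraries had no part in the choice, it fell 10.5-fold against CT (-3.40, SE 0.30; edgeR adjusted p 7.24e-06), with the caution that the CT libraries are those of the selecting contrast. M1B26 lay above MC26 by 1.51 on the log2 scale (SE 0.38), given with no test because MC26 served for the choice. Without M1B26 replicate 3, its highest library, that difference was 0.95.

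**Figure D1:**
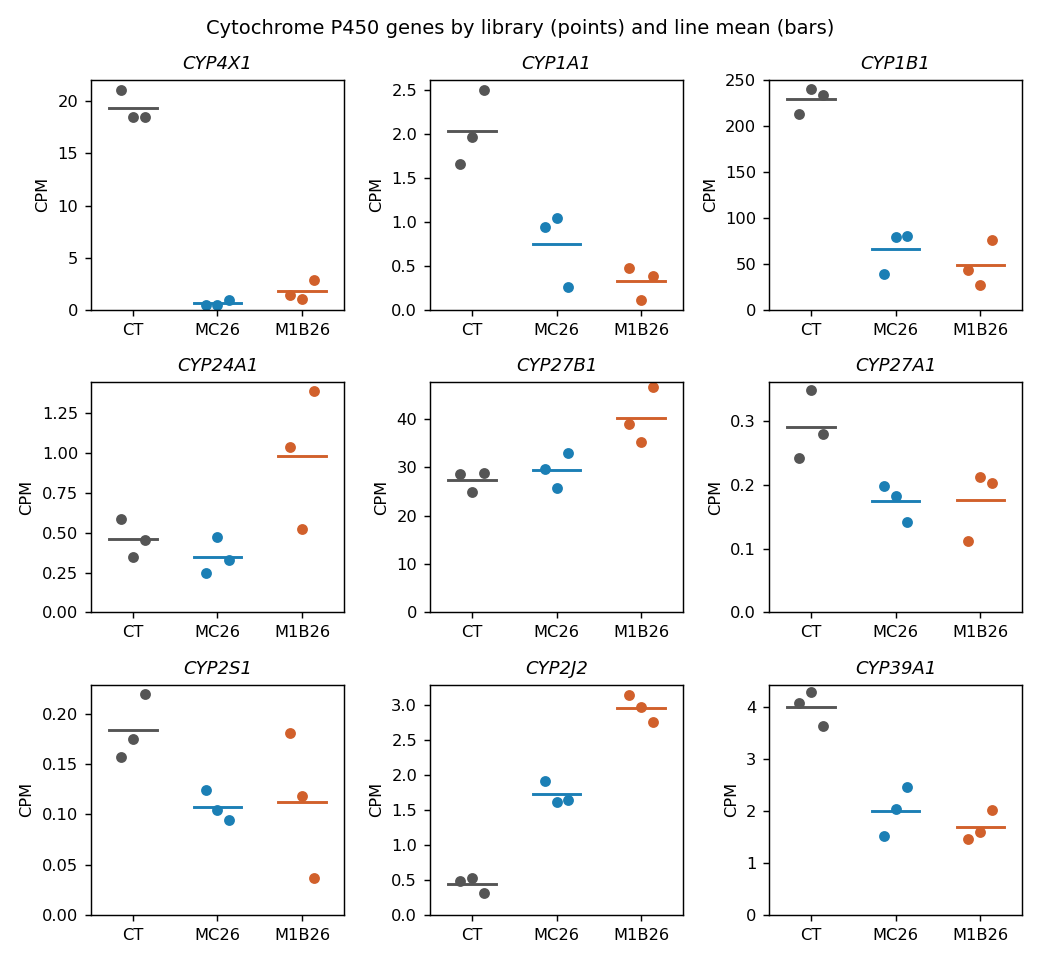
CPM of each member (vertical axis, linear from 0, with a scale of its own per gene) in the 3 libraries of each line (points), with the line means (bars). CYP4X1, CYP1A1, CYP1B1 and CYP39A1 lie highest in CT, and CYP2J2 goes from a mean of 0.442 CPM in CT to 2.97 in M1B26.

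CYP1B1 (chromosome 2, 38066973 to 38109902), which hydroxylates oestradiol, was the most abundant member in CT and lower after transformation. Its level was 213, 239.5 and 234 CPM in the CT libraries, 39.6, 79.7 and 80.7 CPM in MC26 and 43.2, 27.4 and 76.1 CPM in M1B26. Every CT library stood above all others, and MC26 and M1B26 overlapped. In M1B26 it fell by 2.22 on the log2 scale (SE 0.34), at an edgeR adjusted p of 3.13e-04 against CT. Its log2 fold change in MC26 was -1.78 (SE 0.33). The transformed lines differed by -0.44 (edgeR adjusted p 0.305), which became -0.91 and passed without M1B26 replicate 3 (edgeR adjusted p 0.0338). Exons of CYP1B1 share 678 bases with its antisense gene CYP1B1-AS1, and reads of the pair cannot be told apart unless counting used strand, which is not given in the sources used here.

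CYP1A1 (chromosome 15, 74719542 to 74725536), the close relative of CYP1B1, was much rarer and also highest in CT. In CT, 1.66, 1.96 and 2.50 CPM were measured, with 0.945, 1.05 and 0.259 CPM in the MC26 libraries and 0.473, 0.118 and 0.388 CPM in the M1B26 libraries. CT did not overlap with either line, and the lowest MC26 library lay among those of M1B26. CYP1A1 fell by 2.62 in M1B26 on the log2 scale (SE 0.48), at an edgeR adjusted p of 0.00102. In MC26 the log2 fold change against CT was -1.46 (SE 0.44). Between M1B26 and MC26 it was -1.16 (edgeR adjusted p 0.0964), and it passed without MC26 replicate 3 at -1.58 (edgeR adjusted p 0.0104).

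The enzymes that make and break down active vitamin D were both called higher in M1B26 by edgeR. For CYP24A1 the call against CT depended on single libraries. CYP27B1 (chromosome 12, 57762334 to 57768986), the activating hydroxylase, was an abundant member in every line. The CT libraries had 28.6, 24.9 and 28.9 CPM, the MC26 libraries 29.8, 25.7 and 32.9 and the M1B26 libraries 39.1, 35.3 and 46.5. All M1B26 libraries stood above the rest, and CT and MC26 overlapped. CYP27B1 rose in M1B26 by 0.55 against CT (SE 0.12, edgeR adjusted p 0.00270). Against MC26 it rose by 0.45 (SE 0.12, edgeR adjusted p 0.0107), a call lost without MC26 replicate 2 (0.36, edgeR adjusted p 0.0526). In MC26 it stood at 0.10 relative to CT (SE 0.12). Its exons share 107 bases with METTL1 on the same strand, where reads could go to either gene.

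CYP24A1 (chromosome 20, 54153446 to 54173986), the inactivating enzyme, was rare, with 8 to 75 counts per library. CYP24A1 had 0.586, 0.349 and 0.451 CPM in the CT libraries, 0.249, 0.471 and 0.329 in those of MC26 and 1.04, 0.520 and 1.38 in those of M1B26. M1B26 lay above MC26 throughout, and its lowest library lay within the range of CT. The rise in M1B26 against MC26 was 1.50 on the log2 scale (SE 0.38), with an edgeR adjusted p of 0.00995. Against CT the rise was 1.04 (SE 0.35) with an edgeR adjusted p of 0.0310. That call was lost without CT replicate 2 (adjusted p 0.0767 by edgeR), CT replicate 3 (0.0918), M1B26 replicate 1 (0.0762) or M1B26 replicate 3 (0.151). In MC26 its log2 fold change was -0.46 (SE 0.40).

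CYP2J2 (chromosome 1, 59893308 to 59926773), which turns arachidonic acid into epoxides, was the member with the largest increase in M1B26. Its level was 0.486, 0.524 and 0.317 CPM in the CT libraries, 1.91, 1.62 and 1.65 CPM in MC26 and 3.15, 2.98 and 2.77 CPM in M1B26. The lines did not overlap and stood in the order CT, MC26 and M1B26 from the bottom. CYP2J2 rose 6.98-fold in M1B26 against CT (2.80 on the log2 scale, SE 0.21), with an edgeR adjusted p of 2.26e-06. Its rise over MC26 was 0.78 (SE 0.18) with an edgeR adjusted p of 0.00609. In MC26 it was 4.07-fold higher than in CT (2.02, SE 0.21).

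CYP39A1 (chromosome 6, 46549580 to 46652830), which hydroxylates an oxysterol, was highest in CT. In CT, 4.07, 4.28 and 3.63 CPM were measured, with 1.52, 2.04 and 2.45 CPM in the MC26 libraries and 1.46, 1.59 and 2.01 CPM in the M1B26 libraries. CT stood above both transformed lines, which overlapped. In M1B26 it fell by 1.23 on the log2 scale (SE 0.19) with an edgeR adjusted p of 3.96e-04. Its log2 fold change in MC26 was -0.99 (SE 0.19), and between M1B26 and MC26 it was -0.24 (edgeR adjusted p 0.363).

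CYP27A1 (chromosome 2, 218781749 to 218815293), the mitochondrial sterol hydroxylase, had at most 23 counts in a library. The CT libraries had 0.243, 0.349 and 0.280 CPM, the MC26 libraries 0.199, 0.183 and 0.141 and the M1B26 libraries 0.113, 0.213 and 0.203. CT lay above the other lines, though its change in M1B26 did not pass the threshold (-0.65, SE 0.34, edgeR adjusted p 0.133). CYP2S1 (chromosome 19, 41193210 to 41207539) had 11, 4 and 18 counts in CT, 5, 4 and 4 in MC26 and 8, 5 and 2 in M1B26. As CPM, CYP2S1 stood at 0.157 to 0.220 in CT, 0.0941 to 0.124 in MC26 and 0.0369 to 0.180 in M1B26. A difference of M1B26 from CT was not tested in the main fit, because the counts did not pass the filter.

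Over the members, 7 of 8 passed the threshold (edgeR adjusted p under 0.05) in M1B26 against CT, where 48.9% of all tested genes did. CYP24A1, CYP27B1 and CYP2J2 were the 3 that rose (background 25.2%), and CYP4X1, CYP1A1, CYP1B1 and CYP39A1 the 4 that fell (background 23.7%). CYP4X1 shares its CT libraries with the contrast that chose it, and leaving it out 6 of 7 passed, 3 higher and 3 lower. The members were chosen with earlier results of these data known, so no excess over the background is read from either number. The number with CYP4X1 was 6 without CT replicate 2, CT replicate 3, M1B26 replicate 1 or M1B26 replicate 3. Libraries of M1B26 and CT did not overlap for 7 of the 9 members, CYP4X1 among them and the untested CYP2S1 not, beside 59.0% of all tested genes. In M1B26 against MC26, leaving out CYP4X1, 3 members passed (background 39.5%), and CYP24A1, CYP27B1 and CYP2J2 all rose (background 21.2% higher, 18.4% lower). With CYP4X1, 4 members did not overlap between M1B26 and MC26, beside 53.5% of all tested genes. In MC26 against CT 5 members were past the threshold (38.7% of all tested genes), 1 higher (18.8%) and 4 lower (19.9%). There 7 of 9 did not overlap, the untested CYP2S1 among them, beside 50.3% of all tested genes. Nothing is read from the MC26 numbers, because the choice used that contrast. The median log2 fold change of the tested members was -0.94 in M1B26 against CT, or -0.65 without CYP4X1, and that of all tested genes 0.00. With total counts in place of TMM, 39.6% of called genes were higher in M1B26 than in CT, as opposed to 51.5%, and in MC26 35.8% as opposed to 48.5%, and the called members had the same direction under both.

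**Figure D2:**
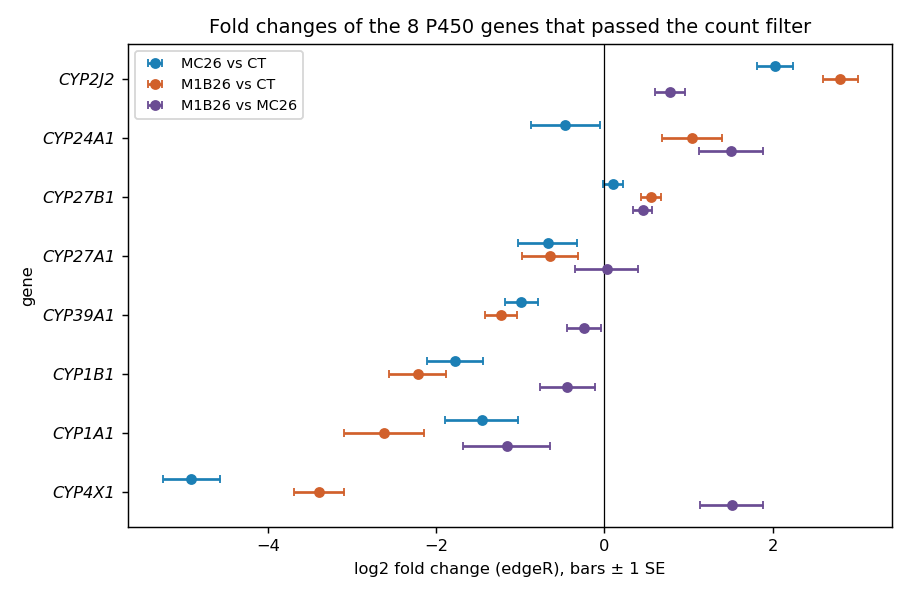
Log2 fold changes by edgeR (horizontal axis, bars ± 1 SE) of the 8 tested members in the 3 comparisons. CYP4X1 lies at -4.91 in MC26 and -3.40 in M1B26 against CT, and CYP2J2 at 2.02 and 2.80.

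Levels of different genes were compared as CPM per kilobase of exon, with the SD over 3 libraries. In CT CYP1B1 led at 38.0 ± 2.36, ahead of CYP27B1 at 8.36 ± 0.680 and CYP4X1 at 7.91 ± 0.593, whose libraries overlapped. CYP39A1 at 1.28 ± 0.106 and CYP1A1 at 0.607 ± 0.127 came next, then CYP2J2 at 0.149 ± 0.0370, CYP24A1 at 0.116 ± 0.0297 and CYP27A1 at 0.0975 ± 0.0181, each overlapping its neighbour, and CYP2S1 at 0.0677 ± 0.0119. In MC26 CYP1B1 (11.1 ± 3.89) and CYP27B1 (8.97 ± 1.09) overlapped at the top. CYP4X1 stood at place 5 in MC26 with 0.261 ± 0.0996, overlapping CYP1A1 at 0.223 ± 0.127, and below the overlapping pair of CYP39A1 (0.643 ± 0.150) and CYP2J2 (0.581 ± 0.0546). In M1B26 CYP27B1 (12.3 ± 1.74) and CYP1B1 (8.12 ± 4.12) overlapped at the top, and CYP2J2 stood at place 3 with 0.998 ± 0.0650, from place 6 in CT. It overlapped CYP4X1 at 0.735 ± 0.406, which overlapped CYP39A1 at 0.542 ± 0.0925. CYP24A1, CYP1A1, CYP27A1 and CYP2S1 filled the last 4 places in MC26 and in M1B26, at 0.0397 to 0.246.

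The genes around CYP4X1 were read to see how far its decrease extended along chromosome 1, and only its relative CYP4B1 showed one of similar size among the 5 tested genes on each side. CYP4B1 (chromosome 1, 46757838 to 46819413), a fatty acid hydroxylase, started 266 kb before CYP4X1. CYP4B1 had 7.04, 6.46 and 5.65 CPM in the CT libraries, 0.0994, 0.183 and 0.682 in those of MC26 and 0.158, 0.189 and 0.203 in those of M1B26. CT lay far above both transformed lines, which overlapped. CYP4B1 passed the filter on low counts through CT, where it was high, so its calls against CT carry that limit. Only 1 MC26 library and no M1B26 library reached the filter cutoff. CYP4B1 fell by 4.27 in MC26 (SE 0.41, edgeR adjusted p 1.93e-05), and by 5.48 without MC26 replicate 3, its highest library there. In M1B26 CYP4B1 fell by 5.09 (SE 0.43) with an edgeR adjusted p of 5.95e-06. The other P450 genes of this stretch were almost silent in CT. CYP4A11 had 12 counts over the CT libraries and CYP4Z1 had 22, both had 0 in MC26 and M1B26, and CYP4A22 had 0 throughout. MKNK1, MOB3C and FOXD2 lay between -0.32 and 0.09 in both contrasts with CT. ATPAF1 stood at -0.50 in MC26 and -0.12 in M1B26, EFCAB14 at -0.14 and -0.42, PDZK1IP1 at -0.02 and 0.81, STIL at 0.41 and -0.16, CMPK1 at 0.01 and -0.18, and FOXD2-AS1 at -0.43 and -0.74. Over 1457 tested genes of chromosome 1 the median was 0.01 in MC26 and 0.00 in M1B26.

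**Figure D3:**
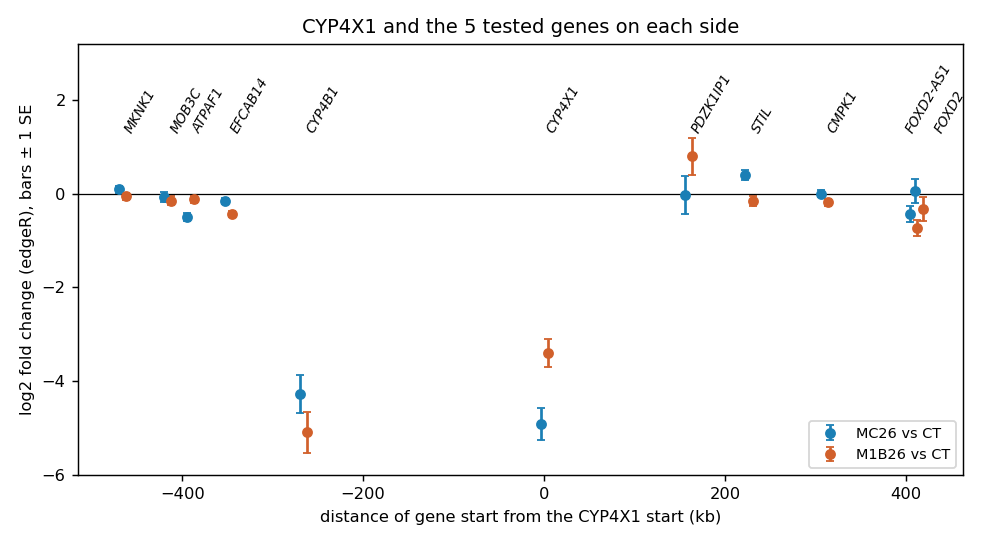
Log2 fold change against CT by edgeR (vertical axis, bars ± 1 SE) of CYP4X1 and the 5 tested genes on each side, by the distance of each gene's start from that of CYP4X1 (horizontal axis, kilobases), for MC26 and M1B26. CYP4B1 and CYP4X1 lie below -3, and the other 9 genes lie between -0.74 and 0.81.

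The genes closest to CYP4X1 in their course over the 9 libraries were found by the root mean square distance of log2 CPM after centring each gene on its mean. The nearest was the ectonucleotidase ENTPD2 (distance 0.253), with 52.3 ± 8.13 CPM in CT (SD, n = 3), 1.89 ± 0.752 in MC26 and 6.47 ± 2.46 in M1B26. The lipid transporter ABCA3 (0.382), the adrenergic receptor ADRA1B (0.391), the sialyltransferase ST3GAL5 (0.417) and the basal keratin KRT15 (0.460) followed. ADRA1B entered the test only through CT, where it was high, and no MC26 library passed the filter for ABCA3. ADRA1B had a mean of 0.0166 CPM in MC26 and 0.0879 in M1B26. Its log2 fold change in MC26 was -6.73, beside -4.91 for CYP4X1. The places of ADRA1B and ABCA3 in this order are therefore uncertain. KRT15 had 139.6 ± 23.1 CPM (SD, n = 3) in CT, 8.27 ± 3.22 CPM in MC26 and 25.7 ± 10.4 CPM in M1B26. All 5 lie on other chromosomes than CYP4X1.

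The other 48 P450 genes were mostly silent. Of all 57 P450 genes, 12 had 0 counts throughout and 22 had 1 to 30 counts in all libraries together, while 13 passed the filter beside the 8 members. CYP51A1, the demethylase of cholesterol synthesis, was the most abundant of them, with a CT mean of 294 CPM, an MC26 mean of 266 and an M1B26 mean of 228. In M1B26 against CT 9 of 13 passed by edgeR, 2 higher (CYP27C1 and CYP2R1) and 7 lower (CYP4B1, CYP4F12, CYP2U1, CYP4V2, CYP20A1, CYP26B1 and CYP51A1), with the background of 48.9%. The call of CYP27C1 (0.97, edgeR adjusted p 0.0151) was lost without CT replicate 1 (0.0514) or M1B26 replicate 3 (0.0578). In MC26 against CT 5 passed, 1 higher (CYP4F11) and 4 lower (CYP4B1, CYP4F12, CYP2U1 and TBXAS1), with the background of 38.7%. This number was 3 without CT replicate 1, CT replicate 3 or MC26 replicate 1, and 4 without any other library. CYP4F12 and CYP4B1 entered the test through CT, where they were high, so their calls in both comparisons with CT carry that limit. The call of CYP4F12 in MC26 (edgeR adjusted p 0.0469) was lost in 11 of 14 alternatives (up to 0.186), and that of TBXAS1 (0.0316) in 7 of 16 (up to 0.0988). In M1B26 against MC26 4 passed, all lower in M1B26 (CYP4F11, CYP4V2, CYP20A1 and CYP26B1), with the background of 39.5%. Their median log2 fold changes were 0.08 in MC26 against CT, -0.44 in M1B26 against CT and -0.22 in M1B26 against MC26, with medians of all tested genes at 0.00.

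CYP4F11, a fatty acid hydroxylase, had uneven replicates in MC26. Its level was 4.97, 4.85 and 4.95 CPM in the CT libraries, 45.6, 27.6 and 10.3 CPM in MC26 and 10.1, 10.5 and 9.64 CPM in M1B26. MC26 and M1B26 lay above CT, and the lowest MC26 library lay among those of M1B26. CYP4F11 rose by 2.49 in MC26 (SE 0.40, edgeR adjusted p 6.70e-04). In M1B26 it was at 1.03 with an edgeR adjusted p of 0.0503. It passed without MC26 replicate 1 (0.0110) or MC26 replicate 3 (4.73e-04), and in a fit of only the 6 libraries compared (1.96e-05). With no filter (1.89e-06) or replicate number as a block (0.0415) it passed as well. Genes of the CYP4F group are close copies of each other, so values of CYP4F11 and CYP4F12 are uncertain where reads could be shared. CYP2U1, another fatty acid hydroxylase, fell by 0.73 in MC26 and 0.78 in M1B26 (edgeR adjusted p 2.24e-04 and 8.75e-05). CYP2R1, which starts the activation of vitamin D, rose by 0.40 in M1B26 (edgeR adjusted p 0.0114).

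P450 enzymes take electrons from partner proteins. A list of 10 genes of P450 partners was followed, of which PGRMC1 and PGRMC2 are not established electron donors. In MC26 1 rose and 3 fell by edgeR (background 18.8% higher and 19.9% lower), and in M1B26 5 rose and 1 fell against CT (background 25.2% higher and 23.7% lower), with median log2 fold changes of -0.10 and 0.16. POR, the reductase of the microsomal P450 enzymes, stood at -0.22 in MC26 and -0.23 in M1B26 (edgeR adjusted p 0.117 and 0.0884), and passed in both without CT replicate 2 (0.00633 and 0.00346). FDXR, the reductase that serves the mitochondrial enzymes CYP24A1, CYP27A1 and CYP27B1, was higher in M1B26. In CT, 25.3, 22.8 and 27.6 CPM were measured, with 18.7, 17.9 and 26.2 CPM in the MC26 libraries and 58.0, 51.4 and 44.4 CPM in the M1B26 libraries. All M1B26 libraries lay above the rest. FDXR rose by 1.02 against CT (SE 0.15) with an edgeR adjusted p of 2.18e-04. It lies on chromosome 17, where the median of 843 tested genes was 0.48 in M1B26 and 0.00 in MC26, and the part of that shift was not tested. In M1B26 the rises of CYB5A (0.24), CYB5B (0.15) and PGRMC1 (0.17) were small, and their calls were lost in 7, 9 and 10 of 16 alternatives, in each case without CT replicate 1 or CT replicate 3 among others (adjusted p up to 0.182, 0.438 and 0.392 by edgeR). In MC26 the call of FDX1 (-0.24, edgeR adjusted p 0.0315) was lost without CT replicate 1 (0.0976), CT replicate 2 (0.0643), CT replicate 3 (0.0511), MC26 replicate 1 (0.113) or MC26 replicate 3 (0.0793). CYB5A, cytochrome b5, fell by 0.56 in MC26 with an edgeR adjusted p of 5.35e-04.

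Of 11 genes of the aryl hydrocarbon receptor, its partners and its targets other than CYP1A1 and CYP1B1, 1 rose and 4 fell in MC26 (background 38.7% called) and 1 rose and 6 fell in M1B26 (background 48.9%), with median log2 fold changes of -0.29 and -0.48. AHRR, a target that represses the receptor, was stepwise lower. The CT libraries had 5.39, 6.07 and 6.57 CPM, the MC26 libraries 1.09, 1.15 and 1.08 and the M1B26 libraries 0.383, 0.379 and 0.406. The lines did not overlap, and replicates were close. AHRR fell by 2.44 in MC26 (SE 0.14, edgeR adjusted p 9.97e-07). It fell by 3.94 in M1B26 (SE 0.16) with an edgeR adjusted p of 5.91e-08, and by 1.50 from MC26 to M1B26 with an edgeR adjusted p of 1.13e-04. ALDH3A1, an aldehyde dehydrogenase, was also highest in CT. ALDH3A1 had 105, 89.4 and 114 CPM in the CT libraries, 4.97, 13.1 and 14.5 in those of MC26 and 23.1, 14.1 and 28.9 in those of M1B26. It fell by 3.25 in MC26 (SE 0.34) and by 2.22 in M1B26 (SE 0.32), with edgeR adjusted p of 3.96e-05 and 2.33e-04.

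The receptor gene AHR fell by 0.65 in MC26 and 0.48 in M1B26 (edgeR adjusted p 0.00413 and 0.0144), and the M1B26 call was lost without M1B26 replicate 2 (0.0658). LRAT, which esterifies retinol, fell by 0.88 and 0.84 (edgeR adjusted p 2.08e-04 and 1.71e-04). NQO1, a quinone reductase, fell by 0.95 in M1B26 with an edgeR adjusted p of 2.39e-04 and stood at -0.29 in MC26 (0.115), where it passed without MC26 replicate 2 (0.0402). UGT1A6, a glucuronosyltransferase, had 1.06, 1.05 and 1.15 CPM in CT and 0, 0 and 0.166 in M1B26, and its counts are uncertain because it shares exons with the other UGT1A genes. ARNT, the partner of the receptor, stood at -0.03 and -0.10, and TIPARP, a further target, at 0.35 and 0.26, none of them past the threshold. TIPARP passed as higher in MC26 without CT replicate 2 (edgeR adjusted p 0.0368) or MC26 replicate 3 (0.00257), with no filter (0.00243) and with DESeq2 (0.0384). In M1B26 TIPARP passed as higher with no filter (0.0238) and without MC26 replicate 3 (0.0371). ARNT2, a relative of ARNT, rose by 1.62 in M1B26 with an edgeR adjusted p of 1.84e-05. Its rise in MC26 (0.53, edgeR adjusted p 0.0265) was lost without CT replicate 1 (0.0741), CT replicate 2 (0.0621), MC26 replicate 2 (0.0674) or MC26 replicate 3 (0.0795).

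**Figure D4:**
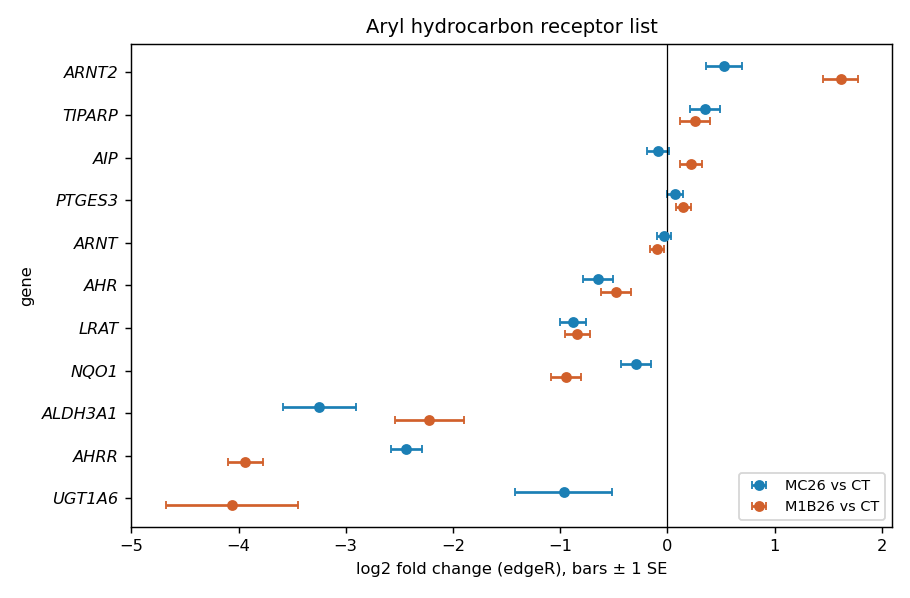
Log2 fold changes against CT by edgeR (horizontal axis, bars ± 1 SE) of the aryl hydrocarbon receptor genes in MC26 and M1B26. AHRR lies at -2.44 and -3.94, ALDH3A1 at -3.25 and -2.22, and ARNT2 at 0.53 and 1.62.

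Among 13 genes of vitamin D transport and response, 6 were tested, and 1 fell in MC26 (background 38.7% called) while 1 rose and 1 fell in M1B26 (background 48.9%). The gene that fell in MC26 was CUBN, an endocytic receptor (-1.64, edgeR adjusted p 0.0205), lost without MC26 replicate 1 (0.0717), and no MC26 library passed the filter for it. VDR, the receptor of the product of CYP27B1, fell by 0.44 in M1B26 with an edgeR adjusted p of 0.00135 and stood at 0.18 in MC26 (0.118). CD14, a target of this receptor, rose by 2.06 in M1B26 with an edgeR adjusted p of 3.75e-05. The other targets listed, CAMP, TRPV6, S100G and SULT1C2, were over the filter cutoff in no library and were not tested. Among 8 genes of oxysterol handling, 6 were tested, and 1 fell in MC26 (background 19.9% lower) while 2 rose in M1B26 (background 25.2% higher). Those that rose were HSD3B7 (0.35) and NR1H2 (0.33), with edgeR adjusted p of 0.0340 and 0.0349, which were lost in 6 and 5 of 16 alternatives, both without CT replicate 1 or CT replicate 2 among others (up to 0.128 and 0.0992). NR1H3, a nuclear receptor for oxysterols, fell by 0.96 in MC26 with an edgeR adjusted p of 6.90e-04 and stood at -0.28 in M1B26 (0.146), where it passed without MC26 replicate 3 (0.0348).

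Of 12 genes that handle or sense the lipids on which CYP2J2 and CYP4X1 act, 2 rose and 5 fell in MC26 (background 38.7% called), and 1 rose and 6 fell in M1B26 (background 48.9%). PTGS2, the inducible cyclooxygenase, was higher in both transformed lines. Its level was 2.39, 2.10 and 2.22 CPM in the CT libraries, 7.01, 6.01 and 4.35 CPM in MC26 and 5.12, 4.21 and 5.74 CPM in M1B26. Neither line overlapped CT, and PTGS2 rose by 1.36 in MC26 and 1.16 in M1B26 (edgeR adjusted p 2.46e-04 and 4.54e-04). EPHX1, an epoxide hydrolase, fell by 0.58 and 1.03 (edgeR adjusted p 9.61e-04 and 1.42e-05). EPHX2, which hydrolyses the epoxides that CYP2J2 makes, fell by 0.50 in MC26 and 0.41 in M1B26 (edgeR adjusted p 0.0191 and 0.0358). Both EPHX2 calls were lost without CT replicate 1 (0.0511 and 0.0742) or CT replicate 3 (0.0539 and 0.0860), that of MC26 without MC26 replicate 1 (0.0756), and that of M1B26 without CT replicate 2 (0.0603) or M1B26 replicate 3 (0.109). PPARG, a nuclear receptor for fatty acids, fell by 1.27 and 0.86 (edgeR adjusted p 4.22e-05 and 3.30e-04). Its relative PPARD was the other gene that rose in MC26 (0.68, edgeR adjusted p 0.00352), and it stood at -0.11 in M1B26 (0.558). PPARA fell by 0.82 in M1B26 (edgeR adjusted p 5.44e-05). ALOX15B fell by 1.03 and 0.73 (edgeR adjusted p 0.00197 and 0.00966). MGLL fell by 1.01 in MC26 (edgeR adjusted p 0.00776) and stood at -0.59 in M1B26 (0.0608), where it passed in 7 of 16 alternatives. Among 8 retinoid genes, 6 were tested, and 1 rose and 2 fell in MC26 (background 18.8% higher and 19.9% lower) while 4 rose and 1 fell in M1B26 (background 25.2% higher and 23.7% lower). The fall of STRA6 in MC26 (-1.23, edgeR adjusted p 0.0207) and the rises of ALDH1A3 (0.80, 0.0286) and RARA (0.45, 0.0143) in M1B26 depended on single libraries. STRA6 was lost without CT replicate 1 (0.0558), CT replicate 3 (0.0545) or MC26 replicate 1 (0.0694), ALDH1A3 without CT replicate 1 (0.0758), CT replicate 2 (0.0752), CT replicate 3 (0.0534), M1B26 replicate 1 (0.0761) or M1B26 replicate 3 (0.115), and RARA without M1B26 replicate 1 (0.0659). RARA lies on chromosome 17, where the median log2 fold change of tested genes was 0.48 in M1B26 against CT. The part of that shift in the rise of RARA was not tested. RARG, a receptor gene related to RARA, fell by 0.31 in MC26 and 0.54 in M1B26 (edgeR adjusted p 0.00915 and 2.24e-04). Both RARG calls were lost in 0 of 16 alternatives. DHRS3, a retinal reductase, rose by 0.87 in MC26 and 1.24 in M1B26 (edgeR adjusted p 0.0141 and 0.00142), and CRABP2, which binds retinoic acid, rose by 1.30 in M1B26 with an edgeR adjusted p of 0.00113.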

How the data were processed

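RNA of 9 cultures, grouped by sample title, was sequenced after poly-A selection. The authors deposited counts as whole numbers for each gene symbol, after alignment with STAR 2.7.3a to GRCh38. Salmon 1.1.0 is named too, so the counter and its handling of strand and shared reads are not known. With edgeR 4.0.16 in R 4.3.3, genes kept by filterByExpr (minimum count 10) were scaled by TMM and fitted by quasi-likelihood over all 9 libraries, with line as the one covariate (biological coefficient of variation 10.4%). Tests were 2-sided (glmQLFTest, Benjamini-Hochberg over 15717 genes), and the SE is |log2 fold change| divided by √F. Tested on simulated data for M1B26 against CT (15437 genes), the fit recovered 82 of 99 genes changed by 1 and 95 of 100 changed by 2 on the log2 scale. The simulated counts used the dispersions of the same fit and changed 200 genes, whereas 48.9% of tested genes were called in M1B26 against CT. These rates therefore need not hold for the real libraries. DESeq2 1.42.0, RLE factors, unscaled totals, no filter, a mean count of 50 or more, fits of 6 libraries, replicate number as a block, an adjusted p under 0.01 and omission of each library were alternatives.

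Members and lists were chosen with earlier results of these data known. Named beside the members were other P450 genes called at an absolute log2 fold change of 1 or more, up to 4 called genes per list and comparison, the 5 tested genes on each side of CYP4X1 and the 5 most like it. Further genes were named after their values were seen. They were POR, ARNT, TIPARP, EPHX2, PPARD, CYB5A, CYB5B, PGRMC1, RARA, CYP4A11, CYP4Z1, CYP4A22, CYP51A1 and P450 genes with smaller changes. The untested vitamin D targets CAMP, TRPV6, S100G and SULT1C2 were also named in this way. Positions, exon lengths and overlaps came from GENCODE v44 on GRCh38. Of the marker genes checked, 1 is not reported here.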

Additional observations from a re-analysis of the deposited data

Results flagged for a closer look

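The change from CT differed between the transformed lines for CYP24A1, CYP2J2 and CYP27B1, by the direct edgeR test of M1B26 against MC26. The log2 difference was 1.50 for CYP24A1, 0.78 for CYP2J2 and 0.45 for CYP27B1, each higher in 3 of 3 M1B26 libraries than in any MC26 library. These were 3 of the 7 tested members other than CYP4X1, beside 39.5% of all tested genes called in this comparison. Libraries of the 2 lines did not overlap for 53.5% of all tested genes, so nothing particular to the members is read from this. Without MC26 replicate 2 the call of CYP27B1 was lost (edgeR adjusted p 0.0526).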

How the results depend on the processing

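The number of members called in M1B26 against CT, 7, was 6 or 7 under every alternative run. In M1B26 against MC26 it was 3, and 5 with no filter, where CYP1A1 and CYP1B1 also passed (edgeR adjusted p 0.00748 and 0.0200), and it ran from 2 to 4 without single libraries. Of the other P450 genes 5 were called in MC26 against CT, 3 with DESeq2, 3 at an adjusted p under 0.01, and 3 to 4 without single libraries. The uncalled difference of CYP27A1 between M1B26 and MC26, 0.03, changed sign without MC26 replicate 3, M1B26 replicate 2 or M1B26 replicate 3 and ran from -0.11 to 0.25 without single libraries, at 5 to 11 counts per library. The value of CYP4X1 in MC26 against CT was -5.28 without MC26 replicate 3. The causes were not tested. Libraries sharing a replicate number were not paired, as their deviations from line means correlated at -0.114 to 0.136 over 9 pairs. With the replicate number as a block, 7 and 3 members were called in M1B26 against CT and against MC26, and 4, 10 and 4 other P450 genes in the comparisons of MC26 with CT, of M1B26 with CT and of the transformed lines. Depth limits CYP2S1, CYP27A1 and CYP24A1, whose values rest on at most 75 counts in a library.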
